A study of Mus musculus with 8 samples.

Results

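The anti-CD3 response of CD8αα intraepithelial lymphocytes (IEL) was taken as the change in RNA between cells after 24 h on plate-bound anti-CD3 and the same kind of cells at 0 h, with 2 arrays at each time. Its members were the genes with a detection p-value under 0.01 on both arrays of either time, and there were 7073 of them among the 7326 genes tested in the whole series. Total RNA was measured on mouse Illumina bead arrays, 8 in all, in 4 groups of 2: CD8αα IEL at 24 h, CD8αα IEL at 0 h, CD8αβ IEL at 24 h and CD8αβ IEL at 0 h. Every group started as IEL of C57BL/6 mice. Plate-bound anti-CD3 (1 µg/ml) expanded them over 48 h in the presence of interleukins 2, 3, 4 and 15. After 14 further days in interleukin 2 they were sorted, so the 0 h cells had themselves met anti-CD3 earlier. The 24 h cells were put back on the same dose of anti-CD3. No group used here spent the 24 h without anti-CD3, so restimulation and a further 24 h of culture cannot be told apart. The labels name the receptor of the CD8αα cells in 3 ways (TCRcd, TCRαα and TCRγδ), and nothing in them ties the replicates to different cultures or mice. The p-values therefore cover the spread of these samples alone, which may be technical.

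IEL are T cells lodged within the gut epithelium, and many of them carry a CD8αα homodimer and a γδ receptor. The CD3 chains are the signalling part of every T cell receptor. An antibody that cross-links them starts the kinases Lck and Zap70, and through calcium, RAS and protein kinase C it switches on NFAT, AP-1 and NF-κB factors. In effector T cells these raise cytokine genes within hours, and a wave of growth genes, many of them MYC targets, follows.

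Read from the signal, as in the rest of this paragraph, all 8 T cell markers, among them Cd3e, Cd3g and Lck, were detected on the 4 CD8αα arrays. By the deposited p-value Ptprc was detected on 0 and Thy1 on 1 of the 4. The γδ segments Tcrg-V4, Tcrg-V7 and TCRD-V1 were detected on all 4 as well. The ID for Cd8a, the chain that both subsets share, was not detected on any of them, whereas Cd8b1, the chain that a CD8αα cell should lack, was detected on all 4. Cd8b1 had log2 signals of 8.79 and 9.97 at 24 h, against 8.82 and 10.44 at 0 h. It was higher on every CD8αβ array, at 12.87 and 13.23 at 24 h and 13.43 and 13.60 at 0 h. No marker of CD4 T cells, stromal cells or red cells was detected on any CD8αα array by signal, though the deposited p-value called the red cell gene Hbb-b1 detected on all 4. Of 8 B cell markers 6 were undetected, among them Cd79a, Ms4a1 and Pax5, and Cd79b and Igh-6 were detected on all 4. Lgals4, Lilrb4a, H2-Ab1 and Kit were the only markers of epithelial, myeloid, class II and mast cells found on all 4. The summed signal of the 8 B cell markers on the array was 1072 and 930 at 24 h, against 3341 and 2404 at 0 h. That of the 7 class II and dendritic cell markers was 827 and 739 at 24 h, against 1392 and 925 at 0 h, and that of the 7 mast cell markers was 541 and 587 at 24 h, against 1147 and 615 at 0 h. Of these, Cpa3, a mast cell protease, was detected on replicate 1 at 0 h alone. Of 12 epithelial markers on the array 10 were undetected on all 4. Cdh1, the epithelial E-cadherin, had 5.396 and 5.4001 at 24 h, against 7.13 and 8.14 at 0 h. Lgals4 did not follow it, with 7.70 and 7.43 at 24 h, against 7.84 and 7.48 at 0 h. The part of these cells in the changes of other genes was not tested. The arrays detected 8236 to 9119 IDs each, with a median of 45 beads per ID.

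Replicate 1 at 24 h and at 0 h lay on chip 1, and replicate 2 at both times on chip 2. The response was therefore fitted within replicate number, and a change below is 24 h minus 0 h on the log2 scale, so that 1 unit is a change of 2-fold. A gene rose or fell where its Benjamini-Hochberg adjusted p from limma was under 0.05. Where the same model without the replicate number missed that threshold, its adjusted p is added as "unpaired". Below the lowest level that counted as detected, log2 5.39 to 5.66 on these arrays, a gene has no measured level, and its fold is then given as "at least", counted from that level. Within these RNA pools, fewer cells that hold a transcript and less of it per cell cannot be told apart.

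Large changes were found in both directions. Of the 7073 members, 2594 passed, which was 36.7%: 1305 rose (18.5%) and 1289 fell (18.2%). These are the shares against which the counts of each gene list are set below. Quantile normalization gives the arrays one distribution, so the balance of rises and falls depends on it, and with median scaling 680 were higher and 919 lower. With undetected levels set at the lowest detected level, the median riser was 1.80-fold higher at 24 h and the median faller 1.86-fold lower. On that basis 84 genes rose and 97 fell by 4-fold or more, and 11 rose and 2 fell by 16-fold or more. Without the replicate number in the model 792 members passed (11.2%), 325 higher (4.59%) and 467 lower (6.6%) at 24 h, and all of them were among the 2594.

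The 2 replicate pairs were compared over all members, since the test within pairs itself favours genes that move alike in both. Over all members the 24 h arrays did not overlap the 0 h arrays for 61.4%. The change had the same sign in both pairs for 80.6%, and the changes of the pairs correlated with r = 0.803 across genes, which are not independent of each other. As the choice of the calls largely fixes, all 2594 had one sign in both pairs, and 2424 (93.4%) did not overlap. In pair 1 the change was 2-fold or more for 1241 members, in pair 2 for 1402, in both and the same way for 813, and in opposite ways for 6. The typical gap between the changes of the pairs was 0.281 log2 units. The bead-to-bead error of a change was about 0.0741 in pair 1 and 0.0781 in pair 2. Bead error leaves out any spread between arrays, so it and the gap are not like measures. The plot of the pairs shows the risers and fallers along the diagonal, with Il24 far off it.

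**Figure D1:**
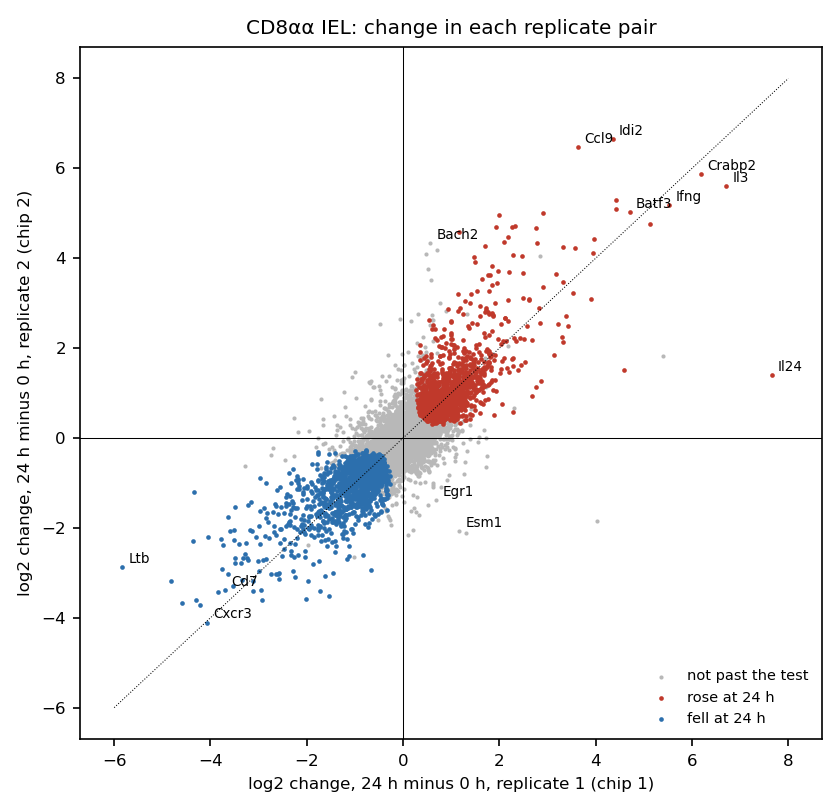
Each point is 1 of the 7073 members of the CD8αα response, with its log2 change in replicate pair 1 on the x axis and in pair 2 on the y axis. Red points rose (1305), blue points fell (1289), grey points did not pass, and the dotted line marks equal change. Il3, Crabp2 and Ifng lie at the top right and Ltb and Cxcr3 at the bottom left, while Il24 rose far more in pair 1, and Egr1 and Esm1 moved in opposite ways.

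Secreted products led the rise. Of 18 tested cytokine and growth factor genes 12 rose (66.7%, against 18.5% of members) and 0 fell. All 18 had a positive fitted change, but only 15 of the 18 moved the same way in both pairs. Their median change was 1.77, or 1.62 with undetected genes at their bound, and it was 2.07 in pair 1 and 1.37 in pair 2. Unpaired, 5 of the 12 passed. Genes of this list such as Il3 and Il13 were detected at 24 h only and were members through that time alone. The filter thus largely fixed their positive sign, so it is no support. Il3, a growth factor for blood progenitors and mast cells, had log2 signals of 11.26 and 10.27 at 24 h, against 4.55 and 4.67 at 0 h. It was undetected on both 0 h arrays and at least 39.3-fold higher at 24 h (adjusted p = 0.00405). Ifng, the cytokine that arms macrophages and raises antigen presentation, had 15.21 and 15.08 at 24 h, against 9.68 and 9.89 at 0 h. Its arrays were tight at each time and far apart between them, and it was 41.0-fold higher (change 5.36 ± 1.06 SE, adjusted p = 0.0124). Csf2, which encodes GM-CSF, had 12.95 and 11.96 at 24 h, against 9.62 and 7.70 at 0 h, a 13.9-fold rise (adjusted p = 0.0038, unpaired 0.0621). Il24, a relative of IL-10, rested on 1 array: it had 14.02 and 6.16 at 24 h, against 6.36 and 4.76 at 0 h. Its groups overlapped, and its adjusted p was 0.0387 (unpaired 0.267). Il2, the T cell growth factor supplied in the medium, had 6.61 and 9.02 at 24 h, against 5.48 and 7.98 at 0 h. Its groups overlapped as well, and the change of 1.09 did not pass (adjusted p = 0.483).

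Among 7 tested chemokine genes 1 rose, 1 fell and 5 did not pass, and neither call held unpaired. The median change of the 7 was 2.04, with 1.06 in pair 1 and 2.76 in pair 2. Ccl9, a ligand of CCR1, had 12.69 and 13.78 at 24 h, against 9.06 and 7.31 at 0 h, a 33.3-fold rise with a wide error (change 5.06 ± 1.47 SE, adjusted p = 0.0396, unpaired 0.0811). Ccl5, which memory cytotoxic cells keep in store, had 12.22 and 13.76 at 24 h, against 13.98 and 14.11 at 0 h, and fell (change -1.06, adjusted p = 0.0438, unpaired 0.212). The T cell chemokine Ccl1 had 12.99 and 14.11 at 24 h, against 12.28 and 9.94 at 0 h. Both 24 h arrays lay above both 0 h arrays, but most of the gap was in pair 2 and the change of 2.44 did not pass (adjusted p = 0.0755).

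Ligands of the TNF family went both ways, with 3 of 12 tested genes higher (25%) and 2 lower (16.7%), near the shares of all members. Tnfsf11, the ligand RANKL, had 9.53 and 10.87 at 24 h, against 6.62 and 5.86 at 0 h, and was 15.5-fold higher (adjusted p = 0.00383). Lta, lymphotoxin α, had 10.19 and 11.69 at 24 h, against 8.50 and 9.37 at 0 h (change 2.01, adjusted p = 0.00815, unpaired 0.057). Its membrane partner Ltb showed the largest fall of all members: 6.94 and 9.59 at 24 h, against 12.77 and 12.46 at 0 h. Every 24 h array was below every 0 h array, and Ltb was 20.4-fold lower (change -4.35 ± 0.82 SE, adjusted p = 0.0105). Tnf itself rose little, with 9.09 and 9.70 at 24 h, against 8.37 and 7.98 at 0 h (change 1.23, adjusted p = 0.0371, unpaired 0.0695). Tnfsf13b, the B cell survival factor BAFF, fell by 1.29 (adjusted p = 0.00352, unpaired 0.0925).

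Several large rises belonged to none of these families. Crabp2, which carries retinoic acid to its nuclear receptor, had 11.37 and 10.86 at 24 h, against 5.18 and 4.998 at 0 h, where it was undetected, and was at least 49.96-fold higher (adjusted p = 0.00296). Idi2, an isopentenyl diphosphate isomerase, had 8.88 and 11.26 at 24 h, against 4.53 and 4.61 at 0 h, and was at least 24.19-fold higher (adjusted p = 0.00296). Serpinb6b, an intracellular serine protease inhibitor, had 10.37 and 10.45 at 24 h, against 6.41 and 6.02 at 0 h, and was 18.3-fold higher (adjusted p = 0.00179). In each of these 3 genes the groups were far apart. Penk1, the enkephalin precursor, was at least 10.2-fold higher, the zinc finger factor Osr2 at least 8.94-fold and the metalloproteinase inhibitor Timp1 at least 7.79-fold, and all 3 were undetected on both 0 h arrays.

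The large falls outside the receptor families were of mixed kinds. Ly6g5b, of the LY6 family, had 5.24 and 7.001 at 24 h, against 9.83 and 10.68 at 0 h, and was at least 15.1-fold lower (adjusted p = 0.00473, unpaired 0.057). Pglyrp1, a peptidoglycan recognition protein of granules, had 6.62 and 7.47 at 24 h, against 11.43 and 10.65 at 0 h, and was 15.96-fold lower (adjusted p = 0.00473). Hsd11b1, the enzyme that restores active glucocorticoid, had 4.997 and 6.75 at 24 h, against 9.21 and 10.47 at 0 h, and was at least 12.4-fold lower (adjusted p = 0.00476, unpaired 0.0782). None of these overlapped between the times. Smpdl3a, a phosphodiesterase of the acid sphingomyelinase family, fell by 3.63 and Osgin1 by 3.27. Arhgef18, a guanine nucleotide exchange factor, fell by 3.26, and BC147527 was at least 4.97-fold lower. Igh-6, the array's name for the IgM heavy chain and one of the 2 detected B cell markers, had 7.17 and 7.36 at 24 h, against 10.81 and 10.38 at 0 h, and fell by 3.33 (adjusted p = 0.00179).

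**Figure D2:**
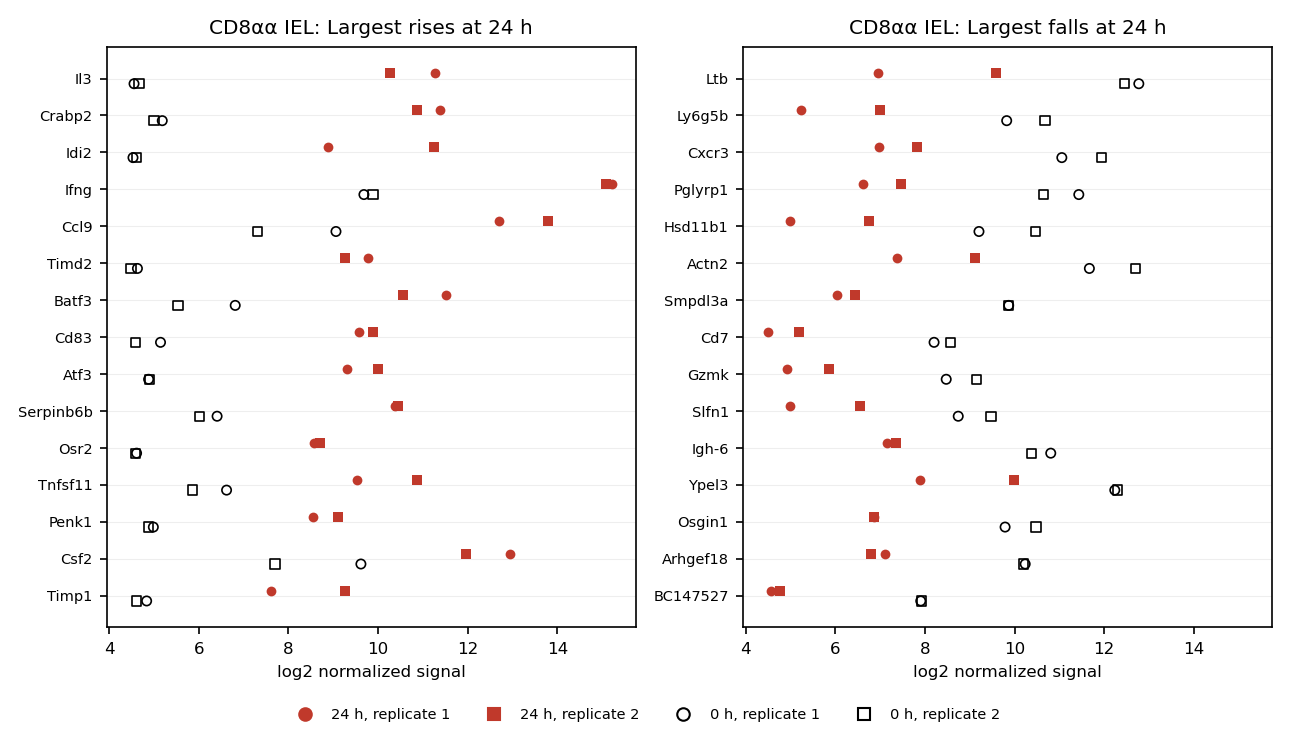
The log2 normalized signal (x axis) of the 15 largest rises (left) and 15 largest falls (right) on each CD8αα array. Filled red marks are 24 h and open black marks 0 h, with circles for replicate 1 and squares for replicate 2. In all 30 genes the 24 h marks lie apart from the 0 h marks, as the choice of these genes required, and signals under 5.39 to 5.66 were not detected.

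Among receptors for cytokines, 1 chain for interleukin 2 rose and chains for interferons and TGF-β fell. Of 17 tested receptor genes 3 rose (17.6%) and 6 fell (35.3%), and unpaired 2 and 3 of them passed. Il2ra, the chain that gives the interleukin 2 receptor its high affinity, had 10.68 and 9.92 at 24 h, against 7.29 and 7.20 at 0 h, and was 8.28-fold higher (adjusted p = 0.00379). Il10ra had 8.83 and 8.23 at 24 h, against 7.28 and 7.0002 at 0 h (change 1.39, adjusted p = 0.00595), while its partner chain Il10rb, with 5.19 and 6.31 at 24 h against 7.22 and 7.87 at 0 h, was at least 2.94-fold lower (adjusted p = 0.00285, unpaired 0.0752). The 2 chains of the interleukin 10 receptor thus moved in opposite ways. Ifngr1, the ligand-binding chain for interferon γ, had 8.54 and 8.71 at 24 h, against 9.96 and 10.35 at 0 h, and fell by 1.53 (adjusted p = 0.00296). Tgfbr2 fell by 1.47 and Ifnar2, of the receptor for type I interferon, by 1.33 (adjusted p = 0.00833 and 0.00398).

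Of 12 tested TNF receptors 5 rose (41.7%) and 2 fell (16.7%), with 2 and 1 of them past the test unpaired. The costimulatory receptors Tnfrsf9 (4-1BB) and Tnfrsf4 (OX40) led. Tnfrsf9 had 11.72 and 12.43 at 24 h, against 10.22 and 8.52 at 0 h (change 2.70, adjusted p = 0.0164), and Tnfrsf4 had 11.81 and 10.31 at 24 h, against 8.67 and 8.46 at 0 h (change 2.49, adjusted p = 0.0171). Both genes were higher on each 24 h array than on any 0 h array. The decoy receptor Tnfrsf26 was at least 1.30-fold lower (adjusted p = 0.0067), and Tnfrsf1a, the main TNF receptor, fell by 0.95 (adjusted p = 0.00537, unpaired 0.13).

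Of 18 receptors for chemokines, lipids and nucleotides 4 rose (22.2%) and 6 fell (33.3%). Cxcr3, which draws T cells to interferon-induced chemokines, had 6.97 and 7.83 at 24 h, against 11.05 and 11.93 at 0 h. The groups were far apart in both pairs, and Cxcr3 was 17.1-fold lower (change -4.09 ± 0.45 SE, adjusted p = 0.00321). P2rx7, the ATP-gated channel, had 5.33 and 5.001 at 24 h, against 7.91 and 8.15 at 0 h, and was at least 5.36-fold lower (adjusted p = 0.00917). Gpr34 fell by 2.97 (adjusted p = 0.00591, unpaired 0.0561). Gpr65, an acid-sensing receptor, had 10.41 and 11.23 at 24 h, against 8.90 and 9.23 at 0 h, and rose by 1.76 (adjusted p = 0.00398). Gpr183, a receptor for oxysterols, depended on the pairing: 7.50 and 10.05 at 24 h, against 5.06 and 8.42 at 0 h. Its groups overlapped, since replicate 2 was higher at both times, and it passed only within pairs (change 2.04, adjusted p = 0.00494, unpaired 0.407).

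The innate-type receptors that CD8αα IEL share with natural killer cells fell where they changed. Of 15 tested genes 7 fell (46.7%, against 18.2% of members) and 0 rose, with a median change of -1.47, or -1.01 with undetected genes at their bound, and of -2.09 in pair 1 and -0.78 in pair 2. Unpaired, 5 passed. The mast cell and class II marker sums were also highest on the 0 h array of pair 1, and their part in this was not tested. Among the 7 fallers Cd7, Klrb1c and Fcgr3 were detected at 0 h only. They were members through that time alone, so the filter largely fixed their direction and their falls are no support. Cd7 had 4.50 and 5.20 at 24 h, against 8.21 and 8.58 at 0 h, so it was undetected on both 24 h arrays and at least 6.90-fold lower (adjusted p = 0.00297). Hcst, which encodes the adaptor DAP10 of NKG2D, had 8.90 and 9.88 at 24 h, against 12.16 and 12.21 at 0 h, and fell by 2.79 (adjusted p = 0.00296). Tyrobp, the adaptor DAP12, had 6.32 and 5.39 at 24 h, against 8.72 and 7.29 at 0 h, and was at least 4.20-fold lower (adjusted p = 0.00527). Klrb1c, the NK1.1 antigen, was at least 2.72-fold lower (adjusted p = 0.0196).

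Of 12 tested inhibitory receptors, their ligands and related genes 4 rose (33.3%, against 18.5% of members) and 1 fell (8.33%), and only 2 of these 5, Timd2 and Havcr2, are receptors. Timd2 and Cd200 were detected at 24 h only and were members through that time alone. The filter thus largely fixed their direction, so their rises are no support. Timd2, a TIM family receptor, had 9.77 and 9.26 at 24 h, against 4.63 and 4.49 at 0 h, and was at least 16.4-fold higher (adjusted p = 0.000951). Havcr2, which encodes TIM-3, had 11.08 and 11.21 at 24 h, against 9.22 and 8.46 at 0 h, and was 4.95-fold higher (adjusted p = 0.00296). Neither gene overlapped between the times. Pdcd1lg2, the PD-1 ligand PD-L2, rose by 1.67 (adjusted p = 0.00974, unpaired 0.0622), and Cd200 was at least 1.4-fold higher (adjusted p = 0.00296). Laptm5, a lysosomal protein that lowers surface receptors, fell by 0.52 (adjusted p = 0.0416, unpaired 0.211).

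Adhesion genes, which include those that hold IEL in the epithelium, mostly fell where they changed. Of 20 tested adhesion and residence genes 8 fell (40%, against 18.2% of members) and 1 rose (5%), and 5 and 1 of them passed unpaired. Itgae, the αE chain that binds E-cadherin, had 7.84 and 9.84 at 24 h, against 11.89 and 12.05 at 0 h, and fell by 3.13 (8.76-fold, adjusted p = 0.0084). Itgb7, the β7 chain that pairs with it, had 9.57 and 10.06 at 24 h, against 12.09 and 12.69 at 0 h, and fell by 2.57 (adjusted p = 0.0034). Both chains were lower on each 24 h array than on any 0 h array. The collagen-binding integrin Itga1 fell by 2.31 (adjusted p = 0.00769), and Ly6c1 was at least 5.86-fold lower (adjusted p = 0.00815, unpaired 0.0999). Cd44, the hyaluronan receptor that marks activated T cells, had 9.58 and 10.69 at 24 h, against 7.79 and 7.92 at 0 h, and rose by 2.28 (adjusted p = 0.00629). Cd69, an early activation and residence antigen, did not pass: it had 9.78 and 11.47 at 24 h, against 10.78 and 12.61 at 0 h, lower in both pairs but with overlapping groups (change -1.07, adjusted p = 0.0575).

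Several chains of the receptor complex and of its signalling path fell, and others did not pass. Of 28 tested genes of the CD3 complex and its signalling chain 13 fell (46.4%, against 18.2% of members), 2 rose and 13 did not pass, and the median change was -0.55 (-0.77 in pair 1 and -0.68 in pair 2). Unpaired, 5 of the falls and neither rise passed. The γ segments Tcrg-V4 and Tcrg-V7 fell by 2.42 and 2.28. Tcrg-V4 had 10.32 and 10.79 at 24 h, against 12.65 and 13.30 at 0 h (adjusted p = 0.0151, unpaired 0.0826), and Tcrg-V7 had 7.91 and 8.75 at 24 h, against 9.94 and 11.27 at 0 h (adjusted p = 0.00527). Neither segment overlapped between the times. The δ segment TCRD-V1, an ID without a gene name in the tables used and so outside the test, had 6.79 and 7.98 at 24 h, against 9.11 and 10.53 at 0 h, lower by 2.32 in pair 1 and by 2.55 in pair 2. Cd3e, a signalling chain of CD3, had 12.64 and 13.37 at 24 h, against 13.85 and 13.99 at 0 h, and fell by 0.92 (adjusted p = 0.0179, unpaired 0.112). Cd3d and Cd247, 2 other chains of the complex, did not pass, with changes of -0.55 and -0.37 (adjusted p = 0.119 and 0.206).

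Adaptors and regulators near the receptor fell further. Sit1, a transmembrane adaptor that restrains signalling, had 5.12 and 5.20 at 24 h, against 7.10 and 8.38 at 0 h, and was at least 4.39-fold lower (adjusted p = 0.00297). Trat1, an adaptor that stabilises the receptor, had 8.70 and 6.28 at 24 h, against 10.23 and 9.79 at 0 h, and fell by 2.52 (adjusted p = 0.0238, unpaired 0.249). Sla2, an adaptor that helps to degrade receptor chains, fell by 1.52 and Rasgrp1, which activates RAS, by 1.46 (adjusted p = 0.00296 and 0.00838). Lat, the scaffold on which Zap70 acts, fell by 1.07 with overlapping groups (adjusted p = 0.0304, unpaired 0.262). Cd28, the costimulatory receptor, rose by 0.71 (adjusted p = 0.0367, unpaired 0.0806).

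**Figure D3:**
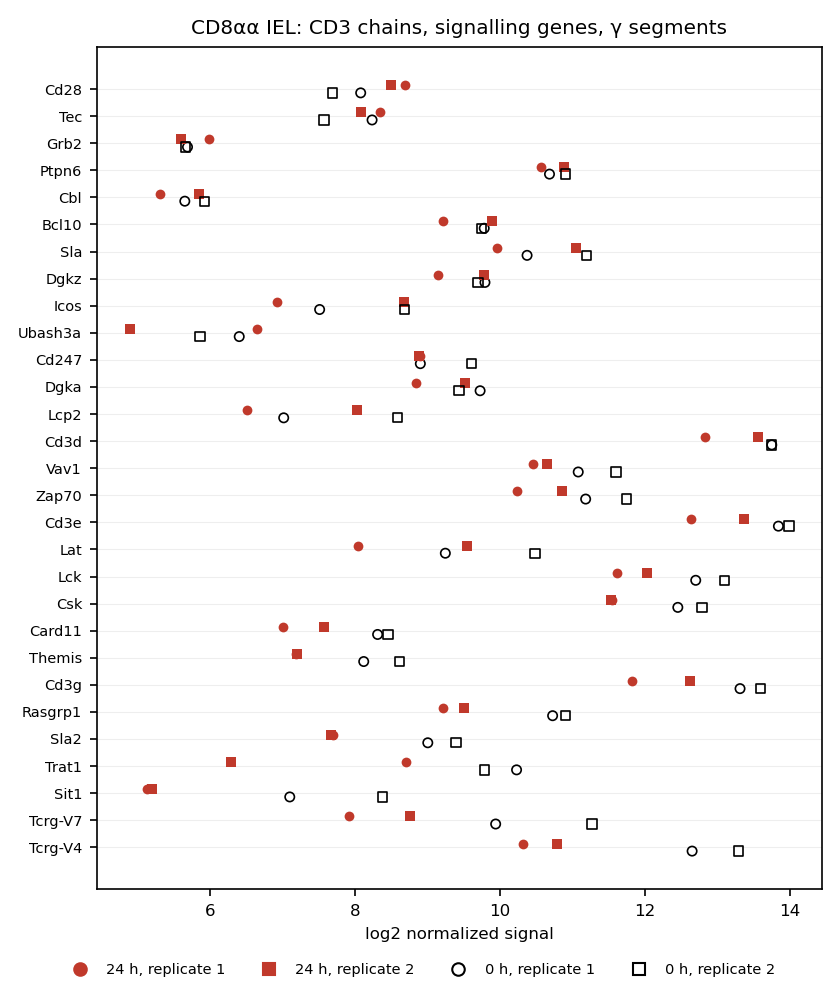
The log2 normalized signal (x axis) on each CD8αα array of tested genes of CD3 and receptor signalling, ordered by their change, and of the γ segments Tcrg-V7 and Tcrg-V4. Filled red marks are 24 h and open black marks 0 h, with circles for replicate 1 and squares for replicate 2. From Vav1 down to Tcrg-V4 the 24 h marks of each replicate lie left of its 0 h marks, while those of Cd28 at the top lie to the right.

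Feedback regulators of signalling changed in both directions. Of 8 tested MAP kinase phosphatase and Sprouty family genes 4 rose (50%) and 1 fell (12.5%), and 2 of the rises passed unpaired. Dusp4 was undetected at 0 h and at least 3.06-fold higher at 24 h (adjusted p = 0.00664, unpaired 0.0571). Dusp14 rose by 1.42 and Dusp16 by 1.12 (adjusted p = 0.0149 and 0.0103). The ERK phosphatase Dusp6 fell by 0.70 with overlapping groups (adjusted p = 0.0492, unpaired 0.414). Among 5 RGS genes, whose products shut off G proteins, Rgs16 had 12.19 and 13.24 at 24 h, against 9.93 and 8.55 at 0 h, and rose by 3.47 (adjusted p = 0.00709). Rgs10 went the other way, with 6.98 and 7.41 at 24 h, against 8.99 and 11.001 at 0 h, and fell by 2.80 (adjusted p = 0.00735). Rgs14 was at least 1.80-fold lower (adjusted p = 0.0268, unpaired 0.0565).

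Of 16 genes of cytokine signalling 5 rose (31.25%) and 3 fell (18.75%). Stat5a, the factor below the interleukin 2 receptor, had 9.52 and 9.36 at 24 h, against 7.33 and 6.29 at 0 h, and was 6.19-fold higher (adjusted p = 0.00296). Socs3, a feedback inhibitor of cytokine receptors, had 10.72 and 9.97 at 24 h, against 7.86 and 8.71 at 0 h (change 2.06, adjusted p = 0.00889). The kinase Pim3 rose by 1.94 (adjusted p = 0.00233). These 3 genes did not overlap between the times. Jak3, the kinase of the common γ chain, fell by 0.76 (adjusted p = 0.0469, unpaired 0.109), and Jak1 was at least 1.51-fold lower with overlapping groups (adjusted p = 0.0127, unpaired 0.371).

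Of 24 NF-κB genes 5 rose (20.8%), 2 fell (8.33%) and 17 did not pass. Cd83, a surface glycoprotein, had 9.56 and 9.87 at 24 h, against 5.15 and 4.58 at 0 h, where it was undetected, and was at least 19.0-fold higher (adjusted p = 0.00179). The subunits Rel, Nfkb1 and Nfkb2 rose by 2.32, 1.47 and 1.4 (adjusted p = 0.00541, 0.00476 and 0.0139, and unpaired 0.057 for Nfkb2). Rel had 7.44 and 8.70 at 24 h, against 5.59 and 5.92 at 0 h, with no overlap. The kinase Ikbke fell by 1.24 (adjusted p = 0.0223, unpaired 0.101) and the adaptor Traf2 by 0.96 (adjusted p = 0.00547).

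Transcription factors of the AP-1, BATF, ATF and IRF families split, with 7 of 22 up (31.8%) and 4 down (18.2%). Batf3 had 11.52 and 10.55 at 24 h, against 6.81 and 5.53 at 0 h, and was 29.1-fold higher (adjusted p = 0.00277). Atf3, a factor of the stress response, had 9.30 and 9.999 at 24 h, against 4.88 and 4.91 at 0 h, where it was undetected, and was at least 18.1-fold higher (adjusted p = 0.000951). Irf4, which scales with receptor signal in T cells, had 11.84 and 11.92 at 24 h, against 8.66 and 8.26 at 0 h, and was 10.7-fold higher (adjusted p = 0.00233). Its relative Irf8 had 10.12 and 11.46 at 24 h, against 7.93 and 6.98 at 0 h, and was 10.1-fold higher (adjusted p = 0.00642). All 4 genes were clearly apart between the times. Irf1, an interferon-induced member of the same family, had 9.67 and 9.78 at 24 h, against 11.29 and 11.51 at 0 h, and fell by 1.68 (adjusted p = 0.00517), and the repressor Bach1 fell by 1.36 (adjusted p = 0.00679, unpaired 0.114).

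Of 14 EGR, NR4A, MYC and NFAT family genes 6 rose (42.9%) and 5 fell (35.7%), but only 2 rises and no fall passed unpaired. Those were the orphan receptors Nr4a2, with 9.15 and 10.76 at 24 h against 7.45 and 6.502 at 0 h (change 2.98, adjusted p = 0.00904), and Nr4a3, at least 2.32-fold higher (adjusted p = 0.0174). Ier3 rose by 2.12 and Bhlhe40, a factor that favours cytokine output, by 1.24 (adjusted p = 0.00581 and 0.0181, unpaired 0.0915 and 0.0703). Mxd4, which competes with MYC for its partner MAX, fell by 1.92 (adjusted p = 0.00383, unpaired 0.104), and Tox was at least 3.09-fold lower with overlapping groups (adjusted p = 0.00904, unpaired 0.368). Egr1 did not agree between the pairs: it had 11.47 and 11.76 at 24 h, against 10.78 and 13.14 at 0 h, higher in pair 1 and lower in pair 2 (adjusted p = 0.81). Egr2 had 10.73 and 12.12 at 24 h, against 9.97 and 9.11 at 0 h, and the change of 1.88 did not pass (adjusted p = 0.232). The ID for Nr4a1 was not detected on any CD8αα array.

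Of 17 factors of T lineage and effector state 2 rose (11.8%) and 8 fell (47.1%). Zbtb32, a repressor induced in activated lymphocytes, had 13.74 and 13.88 at 24 h, against 11.76 and 8.93 at 0 h (change 3.47, adjusted p = 0.0114, unpaired 0.0617). Etv6 rose by 1.4 (adjusted p = 0.00381). Bcl11b, which guards T cell identity, had 9.14 and 9.60 at 24 h, against 10.80 and 11.44 at 0 h, and fell by 1.75 (adjusted p = 0.00318). Tcf7, the factor TCF1 of resting and memory T cells, was at least 3.07-fold lower (adjusted p = 0.0462, unpaired 0.0773), and Bcl6 at least 4.74-fold lower (adjusted p = 0.0313, unpaired 0.0643). Ikzf2 fell by 1.12 (adjusted p = 0.0049, unpaired 0.207). Tbx21, which encodes T-bet, had 9.84 and 9.85 at 24 h, against 9.73 and 9.83 at 0 h, and its change of 0.07 did not pass (adjusted p = 0.83). Eomes, its close relative, was detected on 1 array at each time and was no member.

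Genes of the resting state that changed were lower. Of 23 tested genes that hold lymphocytes in quiescence 13 fell (56.5%, against 18.2% of members), 0 rose and 10 did not pass, Bach2 among them with a change of 2.45 (adjusted p = 0.139). The median change was -1.15, and it was -1.18 in pair 1 and -1.05 in pair 2. Unpaired, 7 of them passed. Slfn1, a Schlafen gene of quiescent T cells, had 4.99 and 6.56 at 24 h, against 8.74 and 9.48 at 0 h, and was at least 8.002-fold lower (adjusted p = 0.00318). Ypel3 had 7.88 and 9.998 at 24 h, against 12.24 and 12.30 at 0 h, and fell by 3.33 (adjusted p = 0.00705). Neither overlapped between the times. Txnip, which holds back glucose uptake, fell by 3.06 (adjusted p = 0.00297, unpaired 0.105), and Pik3ip1, an inhibitor of PI3 kinase, was at least 2.83-fold lower (adjusted p = 0.00526).

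The GIMAP GTPases, survival genes of resting lymphocytes, behaved alike. Of 7 tested 6 fell (85.7%) and 0 rose, all 7 had negative changes, and the median was -1.47 (-1.59 in pair 1 and -1.06 in pair 2). Unpaired, 4 passed. Gimap7 fell most, with 10.55 and 10.20 at 24 h, against 12.76 and 12.42 at 0 h (change -2.21, adjusted p = 0.00296). Gimap6, Gimap8 and Gimap3 fell by 1.53, 1.49 and 1.47 (adjusted p = 0.0159, 0.00347 and 0.00828), and in none of these 4 genes did the times overlap.

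Of 24 genes of cytotoxic granules and killing 5 rose (20.8%) and 6 fell (25%), near the shares of all members, and the median change was 0.01. Besides Serpinb6b, Crtam, a receptor of cytotoxic cells, rose by 2.87 (adjusted p = 0.0237, unpaired 0.0505). Prf1, the pore protein perforin, had 12.20 and 12.61 at 24 h, against 11.27 and 9.74 at 0 h, and rose by 1.90 (adjusted p = 0.0413, unpaired 0.103). Gzmk, a granzyme with trypsin-like specificity, had 4.93 and 5.86 at 24 h, against 8.48 and 9.15 at 0 h, and was at least 8.30-fold lower (adjusted p = 0.0123, unpaired 0.111). Ctsw, a cathepsin of cytotoxic lymphocytes, had 10.50 and 12.03 at 24 h, against 14.02 and 14.30 at 0 h, and fell by 2.89 (adjusted p = 0.00377). Another granzyme, Gzma, with 6.18 and 6.69 at 24 h against 6.10 and 6.99 at 0 h, did not pass (change -0.11, adjusted p = 0.769), and the ID for Gzmb was not detected on any CD8αα array. The protease inhibitors Serpina3g and Ctla2b fell, Serpina3g by 1.90 (adjusted p = 0.0341, unpaired 0.281) and Ctla2b at least 1.89-fold (adjusted p = 0.0392, unpaired 0.121).

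Of 24 genes of the BCL2 family and caspases 5 rose (20.8%) and 3 fell (12.5%), near the shares of all members. Bcl2l1, which encodes BCL-XL and protects activated T cells from death, had 8.15 and 8.404 at 24 h, against 6.47 and 6.95 at 0 h, and rose by 1.57 (adjusted p = 0.00277). Bcl2a1d rose by 1.23 and Bcl2a1b by 0.94 (adjusted p = 0.0247 and 0.0325, unpaired 0.092 and 0.0995); the 2 are near-identical copies, so their probes may read each other. Casp1, the inflammasome caspase, fell by 1.13 (adjusted p = 0.00641), and Casp4 rose by 0.98 (adjusted p = 0.0237, unpaired 0.063).

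Of 18 tested genes that interferons raise 8 fell (44.4%, against 18.2% of members), 1 rose and 9 did not pass, and the median change was -0.89, with -1.33 in pair 1 and -0.39 in pair 2. Unpaired, 4 falls and the rise passed. Isg20, an antiviral exonuclease, had 4.64 and 5.50 at 24 h, against 7.55 and 8.21 at 0 h, and was at least 4.84-fold lower (adjusted p = 0.00296). Gbp7, a guanylate-binding protein, had 6.44 and 7.09 at 24 h, against 8.78 and 8.93 at 0 h, and fell by 2.09 (adjusted p = 0.00574). The times did not overlap in either gene. Ifi47 fell by 1.70 and Ifit2 by 1.46 (adjusted p = 0.00383 and 0.00591, unpaired 0.0622 and 0.0699). Bst2, the tetherin gene, rose by 1.16 (adjusted p = 0.00896).

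Promoters of these genes often carry an interferon response motif, and 2 are shown for that reason. The motif, GAAA and GAAA with any 2 bases between them, was searched on both strands in the 300 bases from 250 before to 50 after each start site. It lay in 45.0% of the 20 promoters of the interferon genes in the RefSeq table (GRCm38.p6), against 3.44% of all 32851 promoters and 3.12% of the promoters of members. The 2 fallers with the largest changes among those that hold it are Gbp7, at chr3:142530086-142530385 (plus strand), and Ddx58, which encodes the RNA sensor RIG-I and fell by 1.35, at chr4:40239776-40240075 (minus strand). Capitals mark the motif, here on the reverse strand.
Gbp7: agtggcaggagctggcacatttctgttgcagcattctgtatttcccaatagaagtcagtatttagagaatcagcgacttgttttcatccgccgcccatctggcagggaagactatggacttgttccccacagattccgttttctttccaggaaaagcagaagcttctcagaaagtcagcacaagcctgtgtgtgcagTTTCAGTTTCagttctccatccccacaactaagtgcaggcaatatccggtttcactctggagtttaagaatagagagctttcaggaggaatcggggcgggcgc
Ddx58: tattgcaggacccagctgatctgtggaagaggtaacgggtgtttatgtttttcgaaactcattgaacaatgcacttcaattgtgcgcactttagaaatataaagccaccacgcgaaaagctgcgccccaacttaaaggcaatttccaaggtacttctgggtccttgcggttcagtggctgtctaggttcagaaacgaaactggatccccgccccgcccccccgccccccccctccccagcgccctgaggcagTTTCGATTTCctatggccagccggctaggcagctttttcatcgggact

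Of 14 genes of MHC class I and peptide loading 7 fell (50%, against 18.2% of members), 1 rose and 6 did not pass (2 and 1 of the calls held unpaired). Nlrc5, the factor that drives class I transcription, had 9.02 and 9.72 at 24 h, against 10.78 and 11.35 at 0 h, and fell by 1.70 (adjusted p = 0.00296). H2-K1 fell by 1.05 and H2-Q7 by 0.97 (adjusted p = 0.0111 and 0.0259, unpaired 0.22 and 0.0698); class I genes are alike in sequence, so their probes may read each other. Psmb10, a subunit of the immunoproteasome, fell by 0.96 (adjusted p = 0.00814). H2-T23, which encodes Qa-1, the ligand of NKG2A, rose by 0.90 (adjusted p = 0.014).

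The broadest rise was in genes that build ribosomes. Of 46 tested genes of ribosome assembly 38 rose (82.6%, against 18.5% of members), 0 fell and all 46 had positive changes. Their median change was 1.18, with 1.26 in pair 1 and 1.12 in pair 2, so it was of one size on both chips, and the rises ran between 0.68 and 1.89. Unpaired, 17 of the 38 passed. Nop2, an rRNA methyltransferase, had 9.34 and 8.36 at 24 h, against 7.28 and 6.64 at 0 h (change 1.89 ± 0.19 SE, adjusted p = 0.00296). Rrp9, of the U3 snoRNP, had 10.77 and 10.02 at 24 h, against 8.57 and 8.55 at 0 h (change 1.83 ± 0.23 SE, adjusted p = 0.00398). Mrto4 and Rrp12, which help to mature the subunits, rose by 1.73 each (adjusted p = 0.0026 and 0.0049, unpaired 0.095 for Mrto4). In contrast to the assembly genes, the cytosolic ribosomal proteins stayed close to the middle of all genes: 1 of 51 rose, 0 fell and the median change was -0.07. That gene was Rpl30, which rose by 0.46 with overlapping groups (adjusted p = 0.0468, unpaired 0.322).

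The E-box CACGTG, the site that MYC with MAX and several other factors read, was looked for in the same promoter windows on both strands. It lay in 22.7% of the 44 promoters of the ribosome assembly genes, in 13.5% of the promoters of risers, in 9.75% of those of fallers, and in 7.15% of all promoters in the table. The 2 assembly genes with the largest rises among those that hold it are Nop2, at chr6:125131633-125131932 (plus strand), and Nle1, at chr11:82908346-82908645 (minus strand), whose own rise was 1.59. They show how the motif sits at different distances from the start, with capitals marking it.
Nop2: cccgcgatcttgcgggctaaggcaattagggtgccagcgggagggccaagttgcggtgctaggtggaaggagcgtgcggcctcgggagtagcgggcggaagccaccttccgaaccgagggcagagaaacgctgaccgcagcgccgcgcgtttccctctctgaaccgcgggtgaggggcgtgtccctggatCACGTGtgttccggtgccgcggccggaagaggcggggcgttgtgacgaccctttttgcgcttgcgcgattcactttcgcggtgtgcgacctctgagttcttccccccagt
Nle1: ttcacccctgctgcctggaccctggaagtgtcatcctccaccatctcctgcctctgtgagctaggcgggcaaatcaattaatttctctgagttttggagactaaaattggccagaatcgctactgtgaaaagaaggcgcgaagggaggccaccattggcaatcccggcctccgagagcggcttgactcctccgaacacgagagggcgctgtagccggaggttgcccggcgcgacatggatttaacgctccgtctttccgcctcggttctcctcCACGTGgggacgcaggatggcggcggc

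Other genes of protein synthesis were called upward only. Of 31 translation factors 14 rose (45.2%) and 0 fell (3 unpaired). Eef1e1, of the multisynthetase complex, had 11.48 and 10.95 at 24 h, against 9.76 and 9.01 at 0 h (change 1.83, adjusted p = 0.00233), and Eif2b3, of the exchange factor for eIF2, had 11.11 and 10.50 at 24 h, against 9.53 and 8.596 at 0 h (change 1.74, adjusted p = 0.00296). In both genes the times were apart on every array. Eif2s2 and Eif1a rose by 1.13 and 1.08 (adjusted p = 0.00403 and 0.00535, unpaired 0.0805 and 0.0752). Of 17 cytosolic tRNA synthetase genes 9 rose (52.9%) and 0 fell, led by Mars1, Aimp2, Farsb and Rars with changes of 1.16, 1.08, 1.01 and 0.82, and none of the 9 passed unpaired.

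Of 20 genes of amino acid and one-carbon metabolism 12 rose (60%) and 0 fell, with a median change of 0.80 (0.96 in pair 1 and 0.67 in pair 2), and 2 rises left unpaired. Srm, spermidine synthase, had 12.29 and 11.09 at 24 h, against 9.99 and 8.86 at 0 h, and rose by 2.26 (adjusted p = 0.00233). Asns, asparagine synthetase, had 10.43 and 9.70 at 24 h, against 8.89 and 7.17 at 0 h, and rose by 2.04 (adjusted p = 0.00477, unpaired 0.124). Every 24 h array of both genes was above every 0 h array. Chac1, which breaks down glutathione, was at least 4.33-fold higher and Slc1a4, a transporter of small neutral amino acids, at least 2.13-fold (adjusted p = 0.0221 and 0.0107, unpaired 0.208 and 0.104).

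A further promoter motif, TGATGCAA, which ATF4 reads when amino acids are short, was held by 3 of 18 promoters of this list, or 16.7%. On either strand it was held by 0.895% of all promoters and by 0.620% of those of members. The 2 risers with the largest changes that hold it are Chac1, at chr2:119350992-119351291 (plus strand), and Slc1a4, at chr11:20332664-20332963 (minus strand), with the motif in capitals on the reverse strand of both.
Chac1: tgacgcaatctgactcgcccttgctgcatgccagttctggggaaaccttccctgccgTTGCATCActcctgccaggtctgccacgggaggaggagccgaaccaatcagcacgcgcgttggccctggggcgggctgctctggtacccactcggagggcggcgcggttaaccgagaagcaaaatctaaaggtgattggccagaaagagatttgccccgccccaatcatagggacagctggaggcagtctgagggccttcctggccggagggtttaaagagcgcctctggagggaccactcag
Slc1a4: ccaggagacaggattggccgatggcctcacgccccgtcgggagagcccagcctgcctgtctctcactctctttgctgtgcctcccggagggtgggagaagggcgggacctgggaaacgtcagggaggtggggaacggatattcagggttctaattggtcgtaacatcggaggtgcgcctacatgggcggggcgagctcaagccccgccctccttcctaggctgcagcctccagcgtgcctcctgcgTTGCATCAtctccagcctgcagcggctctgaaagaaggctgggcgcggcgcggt

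Of 23 nucleotide synthesis genes 11 rose (47.8%) and 0 fell (1 unpaired). The 4 with the largest rises make purines or pyrimidines anew: Atic by 1.43, Gart by 1.36, Ctps by 1.29 and Umps by 1.24 (adjusted p = 0.0119, 0.00296, 0.00383 and 0.00748, unpaired 0.0693 or more). Of 15 glycolysis genes 2 rose (13.3%) and 1 fell (6.67%), none of them unpaired. Hk2, the inducible hexokinase, had 12.41 and 11.48 at 24 h, against 10.70 and 9.23 at 0 h, and rose by 1.97 (adjusted p = 0.00968, unpaired 0.0594). Pdk1, a pyruvate dehydrogenase kinase, fell by 0.95 and Pgam1, a glycolytic mutase, rose by 0.95 (adjusted p = 0.0314 and 0.0288, unpaired 0.287 and 0.291), with overlapping groups for Pgam1. Of 23 genes of sterol and isoprenoid synthesis 4 rose and 0 fell, near the 18.5% of all members. After Idi2 the largest was Scd1, the fatty acid desaturase, with 10.50 and 9.74 at 24 h, against 8.53 and 6.02 at 0 h (change 2.85, adjusted p = 0.0107, unpaired 0.0651), and Pmvk rose by 0.71 (adjusted p = 0.036, unpaired 0.197).

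Within mitochondria, genes of protein import and folding rose and most energy genes did not. Of 20 import and chaperone genes 12 rose (60%) and 0 fell, 8 of them unpaired as well, with a median change of 0.93. Hspd1, the chaperonin HSP60, had 11.71 and 11.31 at 24 h, against 10.25 and 9.44 at 0 h, and rose by 1.66 (adjusted p = 0.00383). Timm10, a carrier in the intermembrane space, had 10.11 and 9.47 at 24 h, against 8.18 and 8.42 at 0 h, and rose by 1.49 (adjusted p = 0.00777). C1qbp and the channel Tomm40 rose by 1.49 and 1.44 (adjusted p = 0.00392 and 0.00318, unpaired 0.0557 and 0.0556). Of 49 genes of the respiratory chain and citric acid cycle 7 rose and 1 fell (16.3%, under the 36.7% of all members), and their median change was 0.08. Cycs, cytochrome c, rose by 0.87 and Mdh2 by 0.70 (adjusted p = 0.00723 and 0.0144, unpaired 0.0815 for Cycs), and Atp5h fell by 0.58 (adjusted p = 0.0183, unpaired 0.0855).

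Folding genes elsewhere in the cell were also called upward only. Of 19 cytosolic chaperone genes 12 rose (63.2%) and 0 fell, 1 of them unpaired, led by the chaperonin subunit Cct6a with 1.38 and Hsph1 with 1.07 (adjusted p = 0.00527 and 0.0124, unpaired 0.0526 for Cct6a). Of 20 genes of the endoplasmic reticulum and the unfolded protein response 12 rose (60%) and 0 fell, 2 of them unpaired. Hyou1, a chaperone of that compartment, had 7.20 and 7.08 at 24 h, against 6.00 and 5.62 at 0 h, and rose by 1.33 (adjusted p = 0.00439), and the factor Xbp1 rose by 0.81 (adjusted p = 0.0491, unpaired 0.115). Of 26 proteasome genes 9 rose (34.6%) and 2 fell (7.69%). The rises were in subunits such as Psmd7 and Psmc5 (0.93 and 0.80, adjusted p = 0.007 and 0.00688), and the 2 falls were in Psmb10 and Psmb9, both subunits of the immunoproteasome (Psmb9 by 0.81, adjusted p = 0.0349, unpaired 0.131).

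Genes of cell division did not rise with the growth genes. Of 32 mitosis genes 0 rose and 5 fell (2 unpaired), 31 had negative changes, and the median was -0.55, with -0.48 in pair 1 and -0.57 in pair 2. The share called, 15.6%, was below the 18.2% of all members that fell, although the list leaned one way. Kif22, a chromosome-arm kinesin, had 10.27 and 9.65 at 24 h, against 11.29 and 10.79 at 0 h, and fell by 1.08 (adjusted p = 0.0159, unpaired 0.0553). Ncapd2, of condensin, had 8.74 and 8.36 at 24 h, against 9.82 and 9.35 at 0 h, and fell by 1.03 (adjusted p = 0.0182), and the spindle protein Spag5 fell by 0.89 (adjusted p = 0.00968). In these 3 genes the times did not overlap. Mki67, the proliferation antigen, lay outside the test, because its ID missed the deposited detection p-value on all 4 arrays. Its signal was 8.87 and 8.37 at 24 h, against 9.45 and 9.36 at 0 h. Of 34 genes of S phase 1 rose and 2 fell, with a median of -0.01: Rfc3, a clamp loader, rose by 0.71, while Cdt1, which licenses origins, fell by 0.92 and Rpa1 by 0.60 (adjusted p = 0.0351, 0.0169 and 0.0248, unpaired 0.126, 0.0641 and 0.0752).

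The promoters of mitosis genes share 2 motifs, the cell cycle element TTTGAA (CHR) and the box CCAAT that NF-Y reads. Each lay in 80.8% of 26 promoters of the list on either strand, against 17.9% of all promoters for TTTGAA and 37.4% for CCAAT. Among the promoters of members the shares were 12.1% for TTTGAA and 38.4% for CCAAT. The 2 fallers with the largest changes are printed with both motifs in capitals: Kif22, at chr7:127042371-127042670 (minus strand), and Ncapd2, at chr6:125191537-125191836 (minus strand).
Kif22: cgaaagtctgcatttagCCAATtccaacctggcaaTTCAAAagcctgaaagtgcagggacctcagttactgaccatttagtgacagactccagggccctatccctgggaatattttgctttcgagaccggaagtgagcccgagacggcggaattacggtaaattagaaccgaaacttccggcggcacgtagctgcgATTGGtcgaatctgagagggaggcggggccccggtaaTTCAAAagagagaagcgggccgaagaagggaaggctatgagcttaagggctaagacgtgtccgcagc
Ncapd2: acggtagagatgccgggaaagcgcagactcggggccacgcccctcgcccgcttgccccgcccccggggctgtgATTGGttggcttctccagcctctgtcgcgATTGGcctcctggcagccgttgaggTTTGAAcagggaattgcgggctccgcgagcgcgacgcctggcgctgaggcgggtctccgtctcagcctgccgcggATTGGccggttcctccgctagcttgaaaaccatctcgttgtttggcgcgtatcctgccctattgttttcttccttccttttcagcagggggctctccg

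Of 22 regulators of the first gap phase 4 rose (18.2%) and 5 fell (22.7%), close to the shares of all members. Gadd45b, a stress sensor downstream of NF-κB, had 9.59 and 10.01 at 24 h, against 7.78 and 6.38 at 0 h, and rose by 2.72 (adjusted p = 0.00614). Cdkn1a, the cycle inhibitor p21, had 10.94 and 11.71 at 24 h, against 9.77 and 10.50 at 0 h, and rose by 1.19 (adjusted p = 0.00494, unpaired 0.0808). Ccng2, a cyclin of resting cells, was at least 2.88-fold lower (adjusted p = 0.00846). Cdkn2c, Ccnd3 and Rbl1 fell by 1.14, 0.97 and 0.90 (adjusted p = 0.00527, 0.0194 and 0.0205, unpaired 0.055, 0.105 and 0.0612).

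Genes of the lysosome and of the cytoskeleton fell more often than they rose. Of 32 lysosome and autophagy genes 10 fell (31.25%) and 3 rose (9.38%; 4 and 1 unpaired). Besides Smpdl3a, the lysosomal precursors Grn and Psap fell by 1.66 and 1.30 and the autophagy gene Map1lc3b by 1.15 (adjusted p = 0.00296, 0.00983 and 0.0149, unpaired 0.0692 for Grn and 0.0853 for Map1lc3b), while the cathepsin Ctsz rose by 1.32 (adjusted p = 0.0089). Of 44 genes of the cytoskeleton and migration 16 fell (36.4%) and 6 rose (13.6%; 6 and 3 unpaired). Actn2, an α-actinin, had 7.38 and 9.11 at 24 h, against 11.67 and 12.70 at 0 h, and fell by 3.94 (adjusted p = 0.00476). Plek, a substrate of protein kinase C, had 7.75 and 9.11 at 24 h, against 5.56 and 5.41 at 0 h, and was at least 7.70-fold higher (adjusted p = 0.00389), and Vcl, vinculin of adhesion sites, had 9.17 and 9.66 at 24 h, against 6.32 and 7.10 at 0 h, and rose by 2.71 (adjusted p = 0.00846). No array of these 3 genes crossed between the times. S100a4 was at least 3.66-fold lower and Arhgap45 fell by 1.87 (adjusted p = 0.00527 and 0.00346, unpaired 0.216 and 0.057), and Arhgap4, another GTPase-activating protein, fell by 1.76 (adjusted p = 0.00574). Of 20 genes of iron, redox and heme 5 rose (25%) and 2 fell (10%). Srxn1, which repairs peroxiredoxins, rose by 1.56, Tfrc, the transferrin receptor, by 1.22, and Glrx fell by 1.67 (adjusted p = 0.0135, 0.00591 and 0.009, unpaired 0.0533 for Tfrc).

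**Figure D4:**
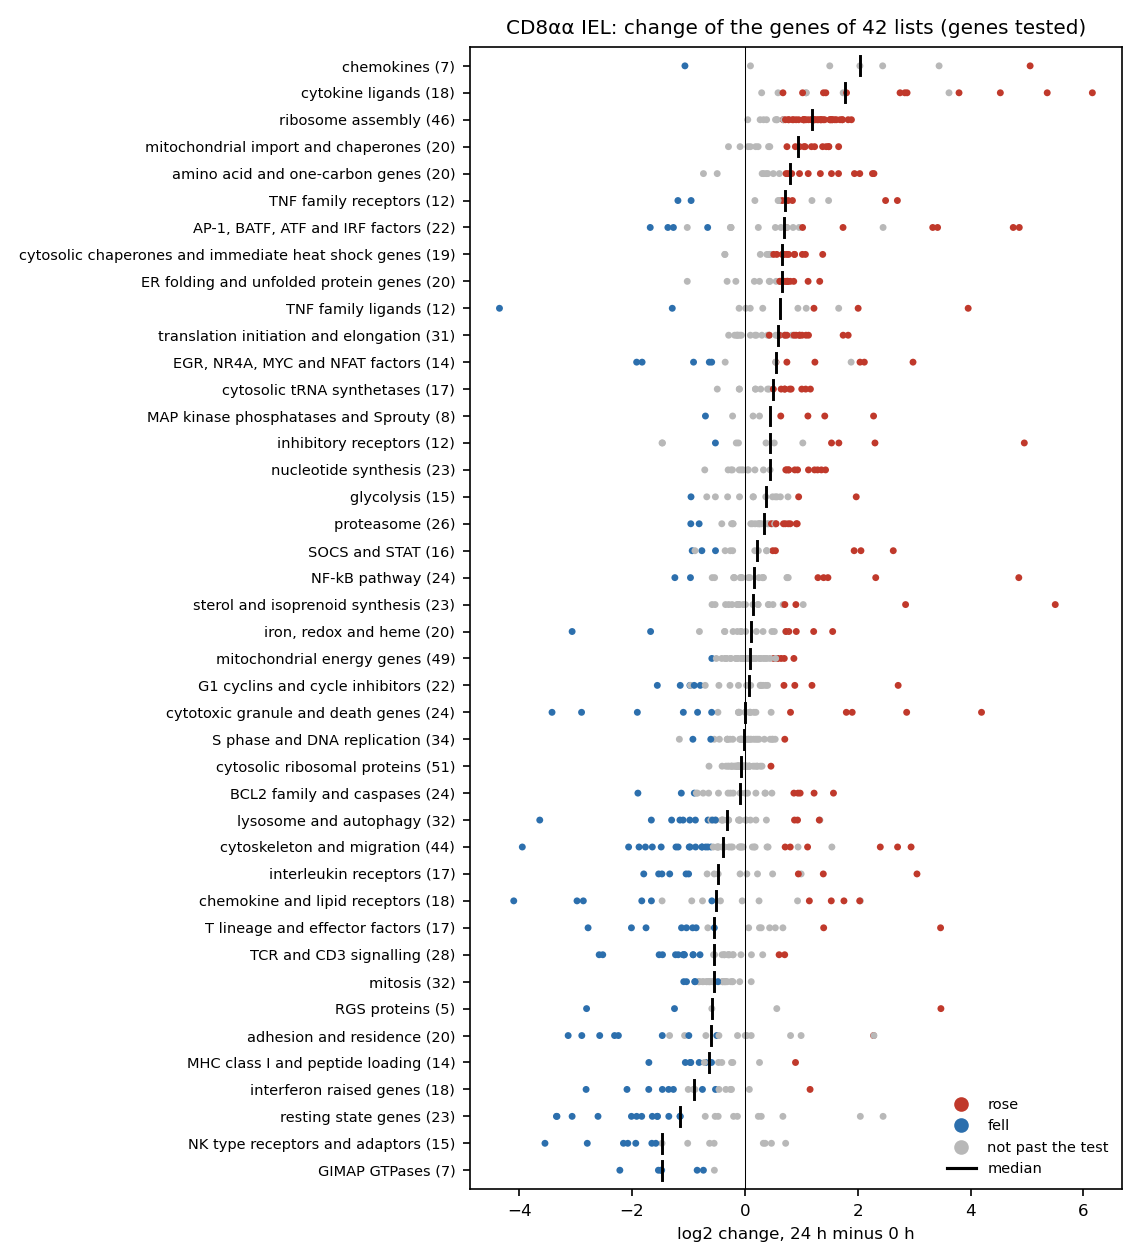
The log2 change at 24 h against 0 h (x axis) of every tested gene in 42 gene lists, with the number tested in brackets and lists ordered by their median (black bar). Red points rose, blue points fell and grey points did not pass. The chemokines stand at the top with a median of 2.04, though only 1 of the 7 rose and 1 fell. Cytokine ligands, ribosome assembly and mitochondrial import also stand near the top (medians 1.77, 1.18 and 0.93). The GIMAP GTPases and NK type receptors are at the bottom (both -1.47), while the 51 ribosomal proteins cluster around 0. With undetected genes at their bound the NK type median is -1.01, above the -1.15 of the resting state genes.

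Some genes were detected at 1 time only. By the deposited detection p-value 160 members were detected on both arrays at 24 h and on neither at 0 h, and 242 at 0 h only. As members they had to be high at that time, and some merely crossed the limit, so their calls by themselves are no support. The list counts above do include such genes. That p-value does not follow the signal where an ID averages several probes: Rps27a, Rps6, Actr10 and Dhx30 counted as 24 h only and Map7d1, Dpm2 and Ik as 0 h only, yet each was bright at both times, with changes between -0.07 and 0.38 that did not pass. Read from the signal, 124 members were detected at 24 h only and 195 at 0 h only, and 105 and 166 were in both readings. The genes with the highest 24 h signal among those 105, named after their values were seen, were Crabp2, Il3, Idi2, Cd83, Atf3, Timd2, Penk1 and Il13. Il13, a type 2 cytokine, had 10.59 and 6.86 at 24 h, against 5.19 and 5.02 at 0 h, and missed the threshold (adjusted p = 0.0705). Among the 166 genes the highest 0 h signals, chosen in the same way, were those of Cd7, P2rx7, BC147527, Isg20, Sit1 and Rtn4rl1. Of the genes that the deposited p-value put at 0 h only, Arap3, a regulator of small GTPases, had 7.89 and 7.53 at 24 h, against 10.76 and 9.71 at 0 h, and fell by 2.53 (adjusted p = 0.00619), Haghl fell by 1.25 (adjusted p = 0.00591, unpaired 0.137), and Pafah1b3 did not pass (adjusted p = 0.0759).

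The pairs disagreed for a small set of genes, and the widest gaps among genes detected on all 4 arrays were in Bach2, Cd81, Ccl1, Prr7, Crtam and Esm1. Bach2, a repressor that keeps T cells from effector fate, had 8.29 and 11.73 at 24 h, against 7.73 and 7.39 at 0 h, so nearly all of its rise was in pair 2 (adjusted p = 0.139). Cd81, a tetraspanin, had 7.17 and 9.51 at 24 h, against 6.70 and 5.41 at 0 h (adjusted p = 0.0983). For both the 24 h arrays were above the 0 h arrays, but by unequal steps. Prr7 and Esm1 moved in opposite ways: Prr7 had 8.11 and 6.54 at 24 h, against 6.80 and 8.66 at 0 h, and Esm1 had 7.19 and 6.88 at 24 h, against 6.02 and 8.95 at 0 h, so that each was higher in pair 1 and lower in pair 2 (adjusted p = 0.685 and 0.712).

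Set against the response of CD8αβ IEL, which was fitted in the same model from its own 24 h and 0 h arrays, no member passed the test of the difference (limma, smallest adjusted p = 0.18), and 375 members (5.30%) had an unadjusted p under 0.05. In CD8αβ IEL 1915 members passed (27.1%). Both subsets called 1560 genes, all in the same direction, which is 60.1% of the calls in CD8αα IEL and 81.5% of those in CD8αβ IEL. Of the 1305 risers 97.5% also had a positive change in CD8αβ IEL, and of the 1289 fallers 98.5% a negative one. The size differed only as a description, since the calls were made on the CD8αα values: the median absolute change of the 2594 genes was 0.92 in CD8αα IEL and 0.71 in CD8αβ IEL. A missing call does not show equal responses, because the 95% interval of the difference reached 0.60 log2 units to either side for the typical member and more than 1 unit for 727 members.

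Rbpms2, Il1a, Fosl2, Cd7 and Gpr183 were among the genes with the smallest p-values for a difference and were picked after their values were seen. Several genes left out here had smaller p-values than Cd7 and Gpr183. Rbpms2, an RNA-binding protein, was higher at 24 h by 1.84 in CD8αα IEL and by 3.70 in CD8αβ IEL, a difference of -1.86 with an interval of -2.35 to -1.36 (adjusted p = 0.18). Il1a changed by 1.39 in CD8αα IEL and by 4.08 in CD8αβ IEL (difference -2.68, interval -3.64 to -1.72, adjusted p = 0.374). Fosl2, an AP-1 subunit, changed by 1.74 in CD8αα IEL and by 0.38 in CD8αβ IEL (difference 1.36, interval 0.86 to 1.86, adjusted p = 0.374). Cd7 changed by -3.54 in CD8αα IEL and by -0.54 in CD8αβ IEL (difference -3.00, interval -4.27 to -1.72, adjusted p = 0.482), and Gpr183 by 2.04 and -0.38 (difference 2.42, interval 1.45 to 3.39, adjusted p = 0.482). None of these passed. Rbpms2, Il1a and Il3 were not detected in CD8αα IEL at 0 h, Gpr183 was below the lowest detected level on 1 of those arrays, and Cd7 was not detected at 24 h. Cd7 was also near or below that level on the CD8αβ arrays, with 4.52 and 4.78 at 24 h and 5.66 and 4.72 at 0 h. The changes and differences of these 5 genes are fitted values that depend on the background model, not measured sizes. For Il3 and Ifng the differences were -1.65 and 1.03 with intervals of -4.32 to 1.02 and -2.61 to 4.67, so their size in the 2 subsets was not resolved by these arrays.

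**Figure D5:**
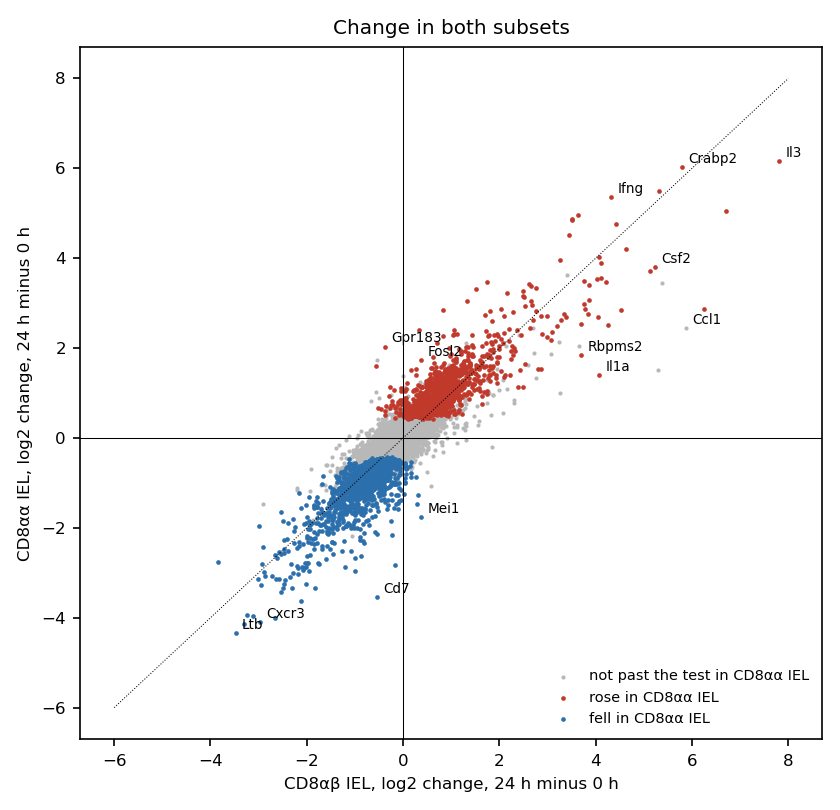
Each point is 1 of the 7073 members, with its log2 change at 24 h in CD8αα IEL on the y axis and in CD8αβ IEL on the x axis. Red points rose and blue points fell in CD8αα IEL, grey points did not pass there, and the dotted line marks equal change. Il3, Crabp2 and Ifng are high in both subsets and Ltb and Cxcr3 low in both, while Cd7 and Gpr183 lie far from the line with fitted differences of -3.00 and 2.42 that did not pass and that rest in part on signals below the lowest detected level.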

How the data were processed

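RNA of 8 samples was amplified and labelled with an Ambion kit and hybridised to bead arrays, per the labels' protocols; no source used here gives the array version. Per the file headers, the series table holds, for each ID and array, the mean bead intensity as deposited before any normalization, its bead-to-bead standard error and a detection p-value. Its bead numbers, entered here as a score, were deposited as averages and show only how many beads lie behind a value. A second deposited table is on a log2 scale. Per the submitters' processing notes lumi was used, and no version is named in these sources; that table served as an alternative.

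From the intensities, background was fitted by a normal and exponential model on the 22828 single-probe IDs of 31492 (offset 16, limma 3.58.1 in R 4.3.3), followed by quantile normalization and log2. Named genes with a detection p-value under 0.01 on both arrays of a group were kept, the brightest ID standing for each, which left 7326. Symbols came from the platform annotation and RefSeq. A limma model with group means and the replicate number as a block (3 residual degrees of freedom) was fitted to all 8 arrays, with Benjamini-Hochberg adjustment over the 7326 genes; SE is its moderated standard error, and limma gave every adjusted p. Every array of CD8αβ IEL lay on chip 1. Deviations of same-numbered arrays from their group means correlated with r of 0.493 to 0.664 in all 6 pairs of groups, which is why the numbers were taken to pair the samples; no label says what they share. "At least" folds set the brighter time's mean against the lowest detected level, or the measured level where higher, of each array of the other time. The model was tested on simulated data.

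The members and the 42 gene lists were chosen with earlier results of these data known. Named genes are the 15 largest rises and falls that passed without overlap, up to 4 list members in the commoner direction of calls and 2 in the other, 8 genes detected at 1 time only by level in each direction, the 6 widest gaps between pairs, the largest differences between subsets where any passed, and a fixed set always given; exceptions are said to be so. Promoter sequences are from RefSeq (GRCm38.p6), which held 5086 of the 7073 members. Alternatives changed the block, background, scaling, filter, IDs and arrays used. The number of arrays limits the precision. Some genes that the rule names are not reported here.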

Additional observations from a re-analysis of the deposited data

How the results depend on the processing

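The 2594 calls became 792 without the replicate block, 1050 with the chip as the block, 1086 with the background taken from all IDs, 1599 with median scaling and 825 on chip 1 alone. Leaving out 1 array at a time gave 841 to 2490 calls. The counts were 1225 without CD8αα at 0 h replicate 1, 841 without replicate 2 and 1691 without CD8αα at 24 h replicate 2. The difference between subsets gave 0 calls under every alternative run except the background from all IDs, which gave 1. Of 216 named genes that passed, 42 passed under each of the 22 alternatives in which they were tested. Among them were Batf3, Cd83, Irf4, Timd2, Cd7, Cxcr3, Srm and Gimap7. Cd83, Timd2 and Cd7 were undetected at 1 time, so the alternative limited to genes detected on all 8 arrays did not test them. No gene that passed changed its sign. 8 named genes that did not pass did change it. Leaving out 1 array at a time, the log2 change ran over -0.22 to 0.13 for Map7d1, -0.043 to 0.051 for Ik, -0.13 to 2.32 for Il2, -1.50 to 0.79 for Egr1, -0.11 to 0.25 for Tbx21, -0.45 to 0.23 for Gzma, -1.55 to 0.76 for Prr7 and -2.19 to 1.31 for Esm1. On chip 1 alone it was 0.68 for Egr1, 0.075 for Gzma, 1.33 for Prr7 and 1.19 for Esm1, and with median scaling -0.021 for Ik. The cause was not tested. With 2 arrays a group, a gene near the lowest detected level has a change that depends on the background model.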

Other observations

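The rule on detection left out bright genes whose IDs average several probes, because their deposited p-value does not follow their signal. Read from the signal instead, 1195 such genes were tested and 302 passed while detected on all 4 CD8αα arrays, 198 higher and 104 lower at 24 h. The 1195 were not limited to genes detected on all 4, so no share can be set against the 36.7% of members that passed. The lean of 198 against 104 was not tested. Myc, the growth regulator, was among the 302 with 7.80 and 6.497 at 24 h, against 5.85 and 5.52 at 0 h, a change of 1.47 (limma, adjusted p = 0.00922). Rbpj, the nuclear partner of Notch, had 8.06 and 8.402 at 24 h, against 5.98 and 5.54 at 0 h (change 2.47, adjusted p = 0.00669). Crem, a cAMP-responsive repressor, had 8.11 and 7.61 at 24 h, against 5.94 and 5.65 at 0 h (change 2.06, adjusted p = 0.00264), and Ripk2, the kinase below NOD receptors, had 8.03 and 7.88 at 24 h, against 5.92 and 5.71 at 0 h (change 2.15, adjusted p = 0.0024). Satb1, a chromatin organiser of T cells, had 11.72 and 10.43 at 24 h, against 9.47 and 8.599 at 0 h (change 2.04, adjusted p = 0.00491). In none of these 5 genes did the times overlap. No unpaired value is given for any gene of this set, here or below. Its absence therefore does not mean that a gene passed without the replicate number.

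The 2 largest falls of that set were in Epsti1 and Gbp2, both known to respond to interferon. Epsti1 had 6.30 and 7.24 at 24 h, against 9.48 and 10.46 at 0 h (change -3.21, adjusted p = 0.00267). Gbp2, a guanylate-binding protein, had 6.39 and 8.27 at 24 h, against 9.90 and 10.02 at 0 h (change -2.63, adjusted p = 0.0173). Tgfbr1, the other chain of the TGF-β receptor, had 6.48 and 6.51 at 24 h, against 8.26 and 8.13 at 0 h (change -1.70, adjusted p = 0.00368). Dpp4, the peptidase CD26, fell by 1.74 and Cd226, an activating receptor of T and natural killer cells, by 1.31 (adjusted p = 0.00912 and 0.0116). In the other direction H2-Q5, a class I gene, rose by 0.98 (adjusted p = 0.00664). These genes were picked after their values were seen.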
